A study of Mus musculus with 8 samples.

Results

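The genes described here encode subunits of the NADPH oxidases, and they were taken as the transcript clusters of the array that the platform annotation gives to Cybb, Cyba, Ncf1, Ncf4, Nox1, Nox4, Rac1 or Rac2. Each of the 8 genes had 1 cluster with no other symbol, so there were 8 clusters of 41345 in all, and no filter on low values was applied. The set was chosen by the log2 difference of Cybb between Zfp125 and empty vector cells, known from these same arrays, and the other members were added by name. Values of the members in this contrast are therefore given as a description, and where a count of calls from the fit over all clusters includes members, it supports nothing about them.

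RNA came from AML12 cells, a mouse hepatocyte line, stably expressing either Zfp125, a zinc finger protein, or the empty vector (EV), and the study compared expression between them, with 4 arrays in each group. Both groups were selected in medium with G418 and then held in control medium. AML12 cells were derived from the liver of mice that carry a transgene for human transforming growth factor alpha, so both groups share that origin. Whether the 4 samples of a group were separate cultures, transductions or selected lines is not given in the sources used here, so all errors and p-values rest on differences among these arrays, and that variation could be purely technical. No cluster was annotated as Zfp125, so its expression was not analysed here.

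NADPH oxidases are membrane enzymes that pass electrons from NADPH in the cytosol across a membrane to oxygen and so make superoxide or hydrogen peroxide. In phagocytes, the catalytic subunit gp91phox, encoded by Cybb, pairs with p22phox, encoded by Cyba, and stays idle until cytosolic subunits, among them p47phox (Ncf1) and p40phox (Ncf4), and the GTPase Rac join it. Nox1 and Nox4 are related catalytic subunits of non-phagocytic cells, and Nox4 needs p22phox but no cytosolic subunit. In liver, Cybb is best known from Kupffer cells and other phagocytes, while hepatocytes and stellate cells are also described to hold oxidases of this family.

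The promoter table of RefSeq (GRCm38.p6) held 5 of the 8 members, and the windows of Cybb and Cyba are shown because these genes encode both subunits of one membrane complex and differed in how they changed. Each is the 250 bases before the listed start, on the minus strand of its chromosome, at chrX:9469325-9469574 for Cybb and chr8:122432941-122433190 for Cyba. Capitals mark matches to the motifs searched, on both strands. One was GAGGAA, a core bound by the myeloid factor PU.1. The others were AGATAA, bound by GATA factors, and the usual promoter boxes with the letters CCAAT, with the letters TATAAA and with the letters GGGCGG. None of these motifs overlaps another in the windows shown.
Cybb: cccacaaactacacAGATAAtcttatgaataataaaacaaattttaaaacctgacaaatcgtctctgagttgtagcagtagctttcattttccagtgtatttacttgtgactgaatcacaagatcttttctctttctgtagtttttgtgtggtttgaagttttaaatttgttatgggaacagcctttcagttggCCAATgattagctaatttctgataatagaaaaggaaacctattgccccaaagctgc
Cyba: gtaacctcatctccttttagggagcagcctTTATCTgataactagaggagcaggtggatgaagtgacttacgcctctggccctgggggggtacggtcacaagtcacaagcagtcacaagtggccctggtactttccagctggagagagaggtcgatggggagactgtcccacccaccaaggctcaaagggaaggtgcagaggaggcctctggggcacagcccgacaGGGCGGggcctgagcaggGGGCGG
The Cybb window was 34% G and C, against 60% in the Cyba window and a median of 52.4% over the 32851 windows of the table. It held a CCAAT box on the gene's strand, 56 to 52 bases before the start, and AGATAA at 236 to 231 bases. The Cyba window held GGGCGG at 24 to 19 and at 6 to 1 bases before the start, and AGATAA in reverse at 220 to 215 bases. Of all windows, 33.8% held CCAAT, 9.99% AGATAA, 32.7% GGGCGG, 23.3% GAGGAA and 12.4% TATAAA. These matches are letters in a window and not known binding sites. Only the exact letters were searched, so a site with other letters, for PU.1 or another factor, would not be marked. Of the other members in the table, Ncf1 and Nox4 each had 1 GGGCGG match and Nox1 had 1 GAGGAA match. Their windows were 54.4% G and C for Ncf1, 67.2% for Nox4 and 38% for Nox1. Whether these shares bear on the differences was not tested.

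The deposited values are on the log2 scale, where a difference of 1 is a 2-fold change, and all levels and differences below are log2 expression. Errors of means are SDs over 4 arrays, errors of differences are standard errors from limma, and differences are Zfp125 minus EV. Array medians lay between 4.32 and 4.37, correlations between any pair of arrays between 0.977 and 0.984, and no array held the values of another. Values of different clusters depend on their probes, so no gene is ranked against another by level, and the median of all clusters (4.34) serves only as a rough mark of dim signal.

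Cybb had by far the largest difference of the 8 genes, while that of Cyba, the partner subunit, was small. Cybb was 8.32, 8.14, 8.34 and 8.39 on the EV arrays and 6.95, 6.83, 6.93 and 7.05 on the Zfp125 arrays. All EV arrays were higher than all Zfp125 arrays, with a gap of 1.09 between the lowest EV and the highest Zfp125 array. The means were 8.30 ± 0.11 (SD, n = 4) and 6.94 ± 0.09 (SD, n = 4), a difference of -1.36 ± 0.09, or a 2.56-fold lower level, with a 95% interval of -1.56 to -1.15. Of the 41345 clusters, 13 had a lower difference. In the limma fit over all clusters, 1 of 8 members, Cybb, passed an adjusted p under 0.05, and it was lower; of all clusters in the fit 0.148% passed in either direction, 0.123% lower and 0.0242% higher. The groups did not overlap for 1 of 8 members, which was lower, against 3.03% of all clusters that were lower without overlap. As the members were chosen with this contrast in view, nothing is read from these counts.

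**Figure D1:**
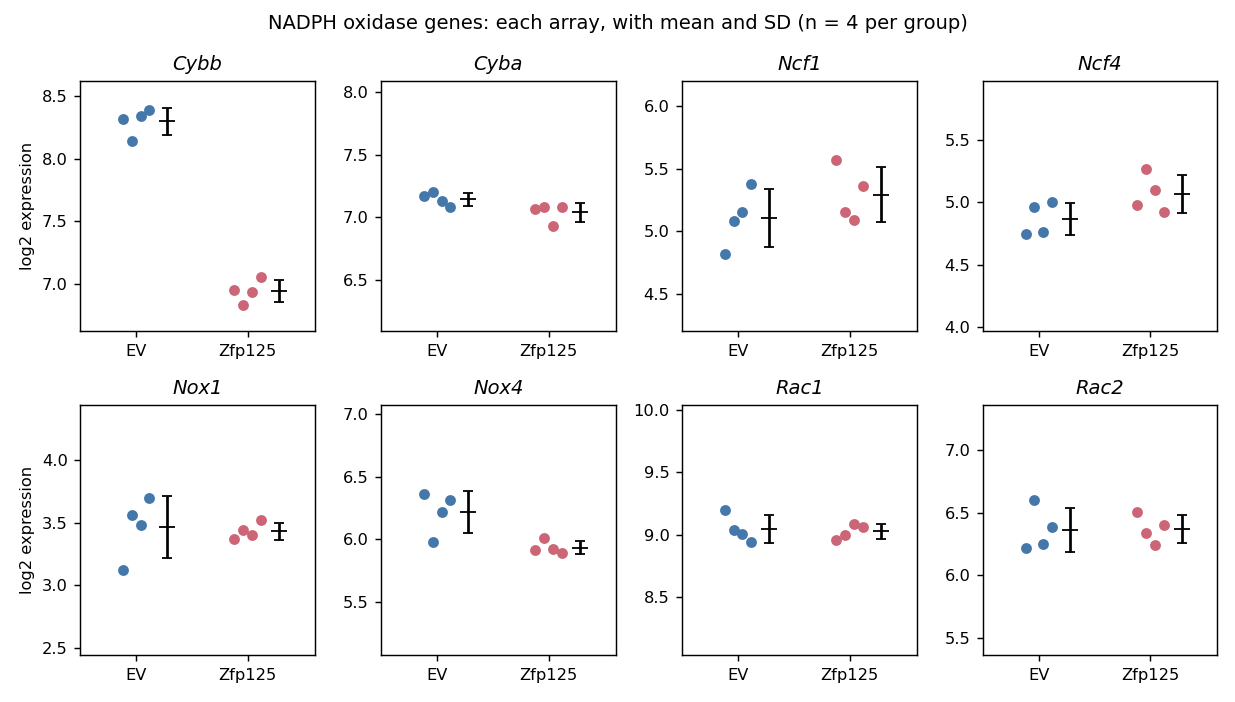
Log2 expression of the 8 NADPH oxidase genes on each array (blue, EV; red, Zfp125; black bars, mean and SD, n = 4), each panel spanning 2 log2 units. The Cybb groups are separated by 1.09, and the groups of Cyba meet at 7.08.

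Cyba encodes p22phox, which stabilises gp91phox and also serves Nox1 and Nox4. It was 7.17, 7.20, 7.13 and 7.08 in EV cells and 7.07, 7.08, 6.93 and 7.08 in Zfp125 cells. The groups met at 7.08, and 1 Zfp125 array, replicate 3, lay below the other 3. The means were 7.14 ± 0.05 and 7.04 ± 0.07, a difference of -0.11 ± 0.08 with a 95% interval of -0.28 to 0.07. The interval reached a fall of 0.28, well short of the difference of Cybb, so at this number of arrays a small change of Cyba can be neither shown nor dismissed.

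Ncf1 and Ncf4, cytosolic subunits of the phagocyte oxidase, had positive differences within the spread of the arrays. Ncf1, which encodes the organiser subunit p47phox, was 4.82, 5.08, 5.15 and 5.38 in EV cells and 5.57, 5.15, 5.09 and 5.36 in Zfp125 cells. The groups overlapped over most of their range, with a difference of 0.18 ± 0.14 (95% interval -0.14 to 0.51). Ncf4, which encodes p40phox, a subunit that binds phosphoinositides on phagosomes, was 4.75, 4.96, 4.76 and 5.001 in EV cells and 4.98, 5.27, 5.10 and 4.92 in Zfp125 cells. The highest Zfp125 arrays, replicates 2 and 3, lay above all EV arrays while the other Zfp125 arrays lay among them, and the difference was 0.20 ± 0.11 (95% interval -0.04 to 0.44).

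Of the other catalytic subunits, Nox4 had the next largest difference among the members. Nox4, which makes mainly hydrogen peroxide and is active without cytosolic subunits, was 6.36, 5.98, 6.22 and 6.31 in EV cells and 5.91, 6.01, 5.92 and 5.89 in Zfp125 cells. EV replicate 2 lay among the Zfp125 arrays, and the other EV arrays were higher than all Zfp125 arrays. The means were 6.22 ± 0.17 and 5.93 ± 0.06, a difference of -0.29 ± 0.10 (95% interval -0.51 to -0.06). The intervals of the members are not adjusted for the number of clusters, and 5012 clusters had a larger difference in size than Nox4. Nox1, the colon-type catalytic subunit, ranged from 3.12 to 3.70 in EV cells and from 3.37 to 3.52 in Zfp125 cells, and the Zfp125 arrays lay inside the EV range. Its difference was -0.03 ± 0.12, and its signal was dim, below the median of all clusters, so a change there could go unseen.

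The Rac GTPases, which in their GTP-bound form complete the active oxidase of phagocytes, had the smallest differences. Rac1, the form found in nearly all cells, ranged from 8.94 to 9.20 in EV cells and from 8.96 to 9.09 in Zfp125 cells, a difference of -0.02 ± 0.09 (95% interval -0.21 to 0.18). Rac2, the form of blood cells, ranged from 6.22 to 6.60 and from 6.24 to 6.51, a difference of 0.01 ± 0.11 (95% interval -0.24 to 0.25). In both genes the Zfp125 arrays lay inside the EV range. Rac1, Rac2 and Rac3 are close paralogs, and whether their probes tell them apart was not tested.

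Over the 8 members, 5 differences were negative and 3 positive, with a median of -0.025, against -0.000952 over all clusters. Among the members other than Cybb the largest difference in size was 0.29.

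**Figure D2:**
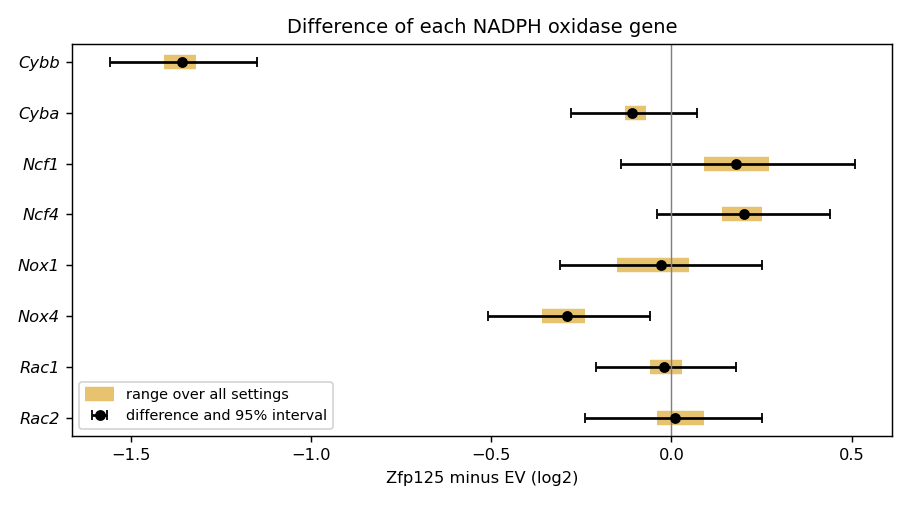
Difference between Zfp125 and EV cells for each member on the log2 scale, with its 95% interval (points and bars) and the range of the difference over all settings tried (yellow). Cybb lies at -1.36, and all the others lie within 0.29 of 0.

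The remaining genes of the oxidase family and its supply chain were taken from 6 lists, in which 108 genes had a cluster of their own. In the limma fit 0 of the 108 were called higher and 0 lower; at an unadjusted p under 0.05, which 9.43% of all clusters met, there were 7 higher and 12 lower. Over all 22180 genes with a single-symbol cluster, 0.221% were called, 0.18% lower and 0.0406% higher. Of 10 other oxidase and dual oxidase genes the median difference was 0.02, and Cybc1, the chaperone that the gp91phox and p22phox complex needs to mature, had 5.91 ± 0.04 in EV and 6.01 ± 0.13 in Zfp125 cells (difference 0.10 ± 0.09; adjusted p = 0.793). Duoxa1, the maturation factor of a dual oxidase, differed by -0.28 ± 0.16 (adjusted p = 0.635) and Rac3 by -0.07 ± 0.09 (adjusted p = 0.875).

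Of 21 regulators of Rac and p47phox, the median difference was 0.01. Chn2, a GTPase-activating protein that switches Rac off, differed by -0.35 ± 0.12 (adjusted p = 0.38), and the Rac exchange factors Prex2 and Tiam1 by 0.30 ± 0.13 (adjusted p = 0.491) and 0.16 ± 0.11 (adjusted p = 0.711). Of 18 transcription regulators known from Cybb, Nox1 or Nox4, 9 differences were negative and 9 positive. Smad3, which mediates the induction of Nox4 by transforming growth factor beta, differed by 0.28 ± 0.11 (adjusted p = 0.455), Cebpb by -0.20 ± 0.08 (adjusted p = 0.46) and Hif1a by -0.21 ± 0.12 (adjusted p = 0.656). Spi1, which encodes PU.1, and Irf8, both activators of Cybb in myeloid cells, differed by -0.06 ± 0.13 (adjusted p = 0.929) and -0.02 ± 0.14 (adjusted p = 0.987). Dimmer clusters of the same genes gave other signs, with 0.34 for Irf8 (adjusted p = 0.43) and 0.08 for Hif1a (adjusted p = 0.938).

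Genes that use up the oxidants or feed the oxidase with NADPH came next. Of 21 genes of superoxide and peroxide removal, 14 differences were negative and 7 positive, with a median of -0.09. The plasma glutathione peroxidase Gpx3 differed by -0.46 ± 0.13 (adjusted p = 0.283), the cytosolic superoxide dismutase Sod1 by -0.27 ± 0.09 (adjusted p = 0.35) and the mitochondrial Sod2 by -0.23 ± 0.10 (adjusted p = 0.49). Of 17 genes of NADPH supply, with a median of 0.01, the malic enzyme Me1 differed by 0.42 ± 0.12 (adjusted p = 0.288), the folate enzyme Mthfd1 by -0.25 ± 0.08 (adjusted p = 0.38) and the formyltetrahydrofolate dehydrogenase Aldh1l1 by -0.26 ± 0.10 (adjusted p = 0.446). Of 21 other enzymes that make superoxide or peroxide, with a median of 0.02, the peroxisomal oxidase Acox2 differed by -0.65 ± 0.15 (adjusted p = 0.161), xanthine dehydrogenase, Xdh, by 0.41 ± 0.13 (adjusted p = 0.358) and the glycolate oxidase Hao1 by -0.45 ± 0.16 (adjusted p = 0.383). Acox2 passed when 1 cluster per gene was tested (adjusted p = 0.0339).

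**Figure D3:**
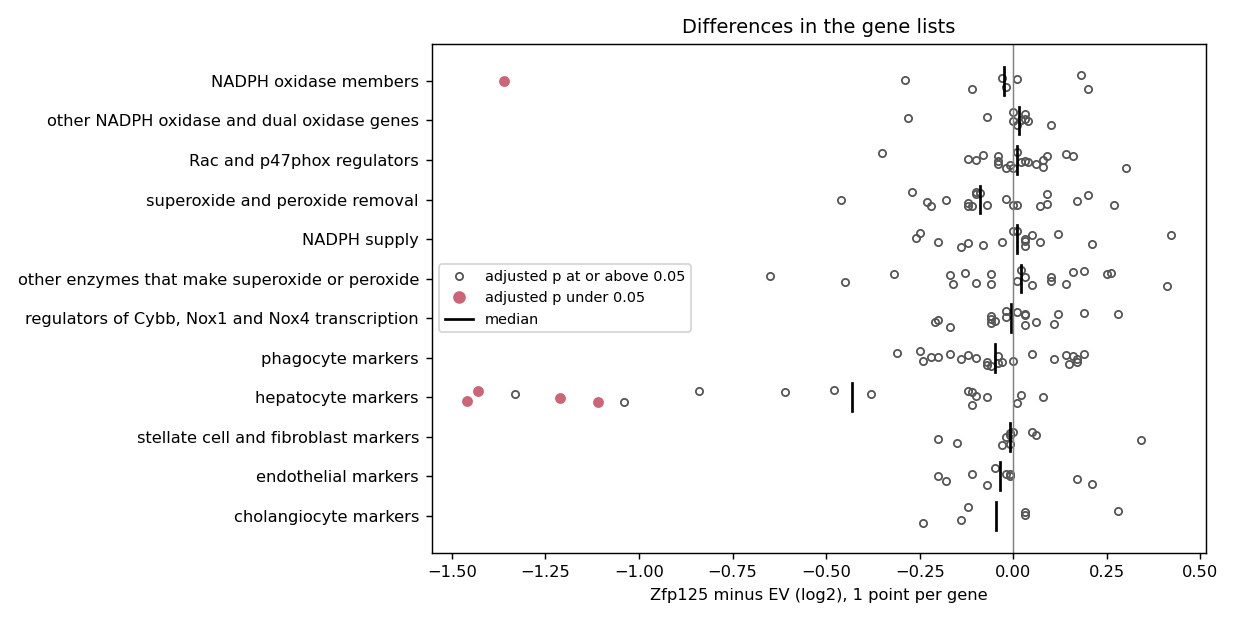
Difference between Zfp125 and EV cells on the log2 scale, 1 point per gene, for the members and 11 gene lists (filled, adjusted p under 0.05 in limma; open, not called; black line, median). Cybb at -1.36 and 4 hepatocyte markers are the called points.

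Markers of phagocytes, the cells in which Cybb is best known, were set beside its fall. Of 24 phagocyte markers, 0 were called in either direction (limma), against 0.221% of all genes, so this count does not set them apart. At an unadjusted p under 0.05, which 9.43% of all clusters met, 0 were higher and 2 lower. The median difference was -0.05, and 14 markers lay below the median level of all clusters. Ptprc, the pan-leukocyte protein CD45, and Adgre1, the macrophage protein F4/80, were dim in both groups, with 3.09 ± 0.17 and 3.05 ± 0.06 for Ptprc and 3.09 ± 0.22 and 3.08 ± 0.04 for Adgre1. Other phagocyte markers were above the median of all clusters in both groups, such as Cd68 (5.50 ± 0.06 and 5.67 ± 0.18) and Marco (5.16 ± 0.32 and 5.13 ± 0.18). Csf1r, the receptor of the macrophage growth factor, differed by -0.22 ± 0.11 (adjusted p = 0.593). Cd14, the lipopolysaccharide co-receptor that hepatocytes also express, was 7.62 ± 0.04 in EV and 7.31 ± 0.08 in Zfp125 cells, a difference of -0.31 ± 0.08 whose groups did not overlap (adjusted p = 0.221). Laptm5, a lysosomal protein of blood cells, differed by -0.20 ± 0.09 (adjusted p = 0.512), also without overlap. Of all clusters, 3.03% were lower without overlap. The chemokine receptor Cx3cr1 differed by 0.19 ± 0.08 (adjusted p = 0.532). The mean level over the 24 markers was 4.21 to 4.32 on the EV and 4.20 to 4.28 on the Zfp125 arrays. Summed on the linear scale they came to 643 to 690 on the EV and 611 to 641 on the Zfp125 arrays, which do not overlap. Without Cd14, left out after its difference was seen, the sums were 447 to 486 and 456 to 488; as this removes the marker with the lowest difference, their overlap is only a description.

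**Figure D4:**
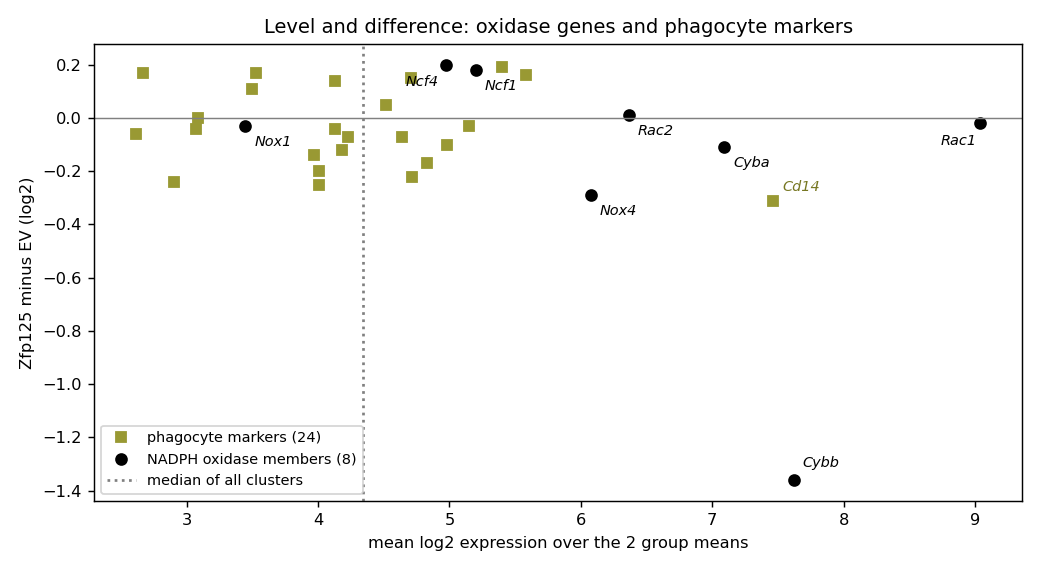
Mean log2 level (horizontal) and difference between Zfp125 and EV cells (vertical, log2) for the 8 members (black circles) and 24 phagocyte markers (olive squares), with the median of all clusters dotted. Cybb lies at -1.36, while the lowest phagocyte marker, Cd14, lies at -0.31.

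Of 18 hepatocyte markers, 17 lay above the median level of all clusters, and the P450 enzyme Cyp2e1 was dim, with 4.26 ± 0.10 in EV and 4.29 ± 0.15 in Zfp125 cells. Of the 18, 4 were called lower and 0 higher (limma), against 0.18% of all genes called lower, and 14 were not called. At an unadjusted p under 0.05, which 9.43% of all clusters met, 10 were lower and 0 higher. The list was chosen with earlier results of these data known, so these counts are a description. The median difference was -0.43, with 15 negative and 3 positive. Those called lower were the fibrinogen chains Fga (-1.11 ± 0.14; adjusted p = 0.0208), Fgb (-1.21 ± 0.17; adjusted p = 0.0376) and Fgg (-1.43 ± 0.20; adjusted p = 0.0376) and the tyrosine aminotransferase Tat (-1.46 ± 0.18; adjusted p = 0.021). The mean level over the 18 markers was 8.01 to 8.29 on the EV and 7.46 to 7.82 on the Zfp125 arrays. Their sums on the linear scale were 18927 to 21501 on the EV and 15490 to 16130 on the Zfp125 arrays. The groups overlapped in neither measure. The sums are weighted to the brightest markers, Alb, which differed by -0.48 ± 0.08 (adjusted p = 0.0794), and Ttr, by 0.08 ± 0.10 (adjusted p = 0.863). The part of these markers in the fall of Cybb was not tested. Leaving out any 1 array ended the calls of Fga and Tat in 6 of 8 cases, the exceptions being EV replicate 2 and Zfp125 replicate 4, and those of Fgb and Fgg in 7 of 8, the exception being Zfp125 replicate 4.

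None of the markers of other liver cells that can hold Cybb or Nox4 was called (limma), against 0.221% of all genes. Of 11 stellate cell and fibroblast markers the median difference was -0.01, with Des at 0.34 ± 0.14 (adjusted p = 0.469), Pdgfra at -0.20 ± 0.14 (adjusted p = 0.721) and Col1a2 at -0.15 ± 0.12 (adjusted p = 0.764), for which a dimmer cluster gave 0.01 (adjusted p = 0.992). Of 10 endothelial markers it was -0.03, with Tek at 0.17 ± 0.09 (adjusted p = 0.615), Eng at -0.20 ± 0.11 (adjusted p = 0.632) and Clec4g at 0.21 ± 0.16 (adjusted p = 0.753). Of 6 cholangiocyte markers it was -0.05, with Sox9 at 0.28 ± 0.09 (adjusted p = 0.315), Cftr at -0.24 ± 0.12 (adjusted p = 0.584) and Krt19 at -0.14 ± 0.11 (adjusted p = 0.753). At an unadjusted p under 0.05, which 9.43% of all clusters met, Des and Sox9 were higher and 0 genes of these lists were lower.

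None of the measured genes around Cybb on the X chromosome was called, against 0.221% of all genes. Of the 3 nearest RefSeq genes on each side only the histone variant gene H2al1o had a single-symbol cluster, with a difference of 0.13 ± 0.18 (adjusted p = 0.882). The nearest protein-coding genes with a cluster on one side were H2al1m (0.15 ± 0.13; adjusted p = 0.788), Xk (0.31 ± 0.15; adjusted p = 0.585) and Lancl3 (-0.14 ± 0.16; adjusted p = 0.855). On the other side, beyond H2al1o, they were Dynlt3, a dynein light chain (-0.10 ± 0.12; adjusted p = 0.859), and Sytl5 (-0.20 ± 0.10; adjusted p = 0.577).

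The profile of Cybb was compared with those of 22179 other genes by the root mean square difference, over the 8 arrays, of each gene's deviations from its own EV mean. The nearest were Apoc1 (0.133), Kng2 (0.137), H2-Q10 (0.159), Gckr (0.167) and Kyat3 (0.17). They encode an apolipoprotein, a kininogen, a class I MHC protein secreted by liver, the glucokinase regulatory protein and a kynurenine aminotransferase. The median over all genes was 0.972, and the members other than Cybb lay at 0.764 to 1.12. Since the profile is dominated by the step between the groups, this lists genes with a fall of similar size and evenness and says nothing of shared control.

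**Figure D5:**
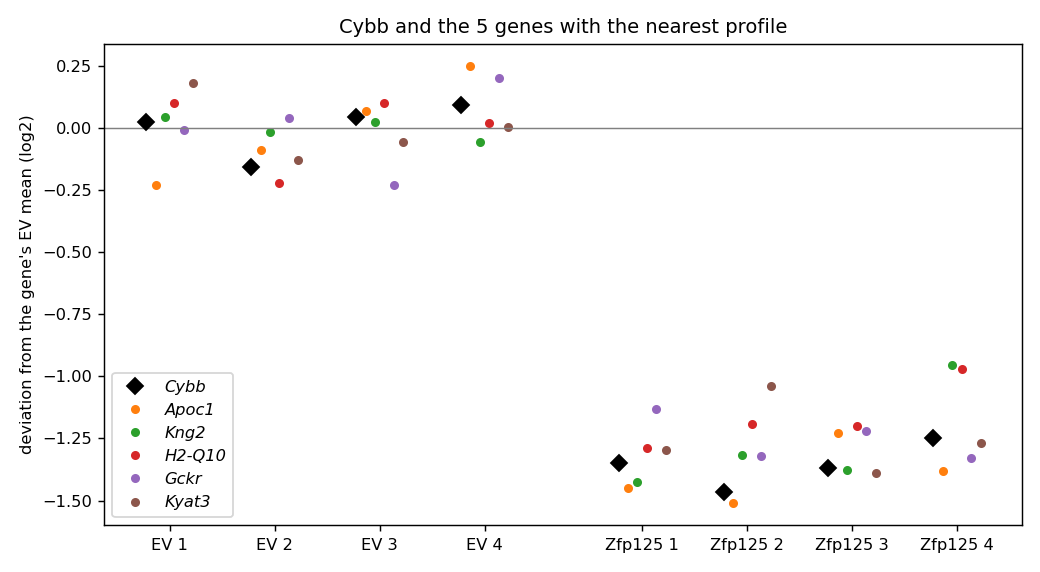
Deviation of Cybb (black diamonds) and of the 5 genes with the nearest profile (coloured circles) from each gene's EV mean, in log2 units, on each of the 8 arrays. On the EV arrays all 6 genes lie near 0, and on every Zfp125 array all lie well below it.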

How the data were processed

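The authors deposited 1 table of log2 expression values, with 1 value for each of 41345 transcript clusters on each of 8 Affymetrix mouse gene arrays. The submitters' processing notes name Affymetrix Expression Console with Transcriptome Analysis Console; how background was corrected and arrays were normalized was not stated. That the scale is log2 follows from their range. No detection calls were used, and the number of arrays limits the precision.

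All 41345 clusters were fitted together by lmFit with eBayes, from limma 3.58.1 under R 4.3.3, and Benjamini-Hochberg adjustment ran over all two-sided p-values, with 0.05 as the threshold. Of the clusters, 23521 had a single gene symbol, 1814 had several and 16010 had none here. Entrez identifiers linked the single symbols to current RefSeq names (GRCm38.p6), which held 23328 of them. List genes were read from their brightest single-symbol cluster, and 177 of 198 were measured; of the other 21, 6 had only clusters with several symbols, and all 21 are not analysed here.

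The members, lists and tests were chosen with earlier results of these data known. Text names the members, each list's called genes and its 3 smallest p-values, the 5 profiles nearest to Cybb and its neighbours. Spi1, Irf8, Ptprc, Adgre1, Cd68, Marco, Csf1r, Alb, Ttr, Cyp2e1 and the measured neighbours were named, and the sums without Cd14 taken, after values were seen. The fit was tested on simulated data with independent arrays and 50 changes of each size. It called 24% of changes of 0.5 and 84% of changes of 1.0, so most changes of 0.5 were missed. Replicate numbers come from the titles. Taken over all clusters, same-numbered samples did not deviate together (r = -0.041, -0.023, 0.03 and -0.012). These values do not speak for single genes. For Cybb, replicate 2 was the lowest and replicate 4 the highest array in both groups, and whether this reflects pairing was not tested. Alternatives covered normalization, dim clusters, moderation, array weights, clusters per gene, the replicate block and omission of single arrays. Matplotlib 3.10.9 drew the plots.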

Additional observations from a re-analysis of the deposited data

Results flagged for a closer look

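The members, each list's called genes and 3 smallest p-values, and the 5 profiles nearest to Cybb gave 94 sets of 4 arrays. The neighbours of Cybb and genes named after values were seen were left out. In 5 sets a single array lay far from the other 3, its gap exceeding 0.829 of the whole range (Dixon's 95% critical value). Chance gives about 1 in 20 such sets, which is close to this count. Among the members it was Cyba in Zfp125 replicate 3, at 6.93 against 7.07 to 7.08 on the other Zfp125 arrays. Duoxa1, the dual oxidase maturation factor, was 3.78 in Zfp125 replicate 4 against 4.33 to 4.38. Mthfd1, the folate enzyme, was 6.17 in Zfp125 replicate 2 against 5.99 to 6.02. Laptm5, the lysosomal protein, was 3.77 in Zfp125 replicate 4 against 3.95 to 3.96. Cftr, the chloride channel, was 4.06 in Zfp125 replicate 1 against 3.81 to 3.82.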

How the results depend on the processing

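The difference of Cybb stayed between -1.41 and -1.32 in the fit as reported and the 17 alternatives run for the members; means of clusters were taken for the lists only. As Cybb was chosen on these arrays, this range is a description. With the replicate number as a block its difference was -1.36, and 0 members were called. The block called 0 clusters of the whole table (limma, with 3530 at an unadjusted p under 0.05) and 0 hepatocyte markers. Whether same-numbered samples shared an experiment or batch is not given in the sources used here. Cyba, Ncf1, Ncf4 and Nox4 kept their sign in all settings, while Nox1, Rac1 and Rac2 lay at both sides of 0. The 61 clusters called in the whole table (10 higher) became 232 (86 higher) among clusters above the median level, 94 (22 higher) above the 25th percentile, 196 (70 higher) with a trended, robust prior, 4 (1 higher) without moderation, 240 (99 higher) with 1 cluster per gene, 227 (92 higher) with means of clusters, and 16 to 61 on leaving out 1 array. They were 39, 29 and 26 without EV replicates 1, 3 and 4, and 16, 17 and 20 without Zfp125 replicates 1, 2 and 3. The 4 hepatocyte markers called lower became 8 above the median level, with the robust prior and with 1 cluster per gene, 7 with means of clusters, 0 without moderation, and 0 to 6 on leaving out 1 array, 0 for each of those 6 arrays. Of the other enzymes that make superoxide or peroxide, 1, Acox2, was called lower with 1 cluster per gene and 1 with means of clusters. Fewer features were tested with 1 cluster per gene, with means of clusters and with a level filter. The cause of the shifts was not tested in any setting. Nox1, below the median level, gave no value among the brighter clusters, and its low signal limits what a change there could show.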
